A study of Drosophila melanogaster with 6 samples.

Results

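Transcript levels of 8 genes of lipid storage and lipoprotein transport were examined in adult Drosophila melanogaster heads. The 8 were taken by name from a table of 11836 genes: the lipase genes bmm and Lip4, the lipid droplet coat genes Lsd-1 and Lsd-2, the triacylglycerol synthesis gene mdy, and the lipoprotein genes apolpp, Apoltp and Mtp. The table held 7 under these symbols, and apolpp was found by its identifier (FBgn0087002), listed there under the older symbol Rfabg. Mutant flies, homozygous for the P18 mutation of Prp31, gave 3 libraries, and control flies labelled w, with the genotype white, gave the other 3. Prp31 encodes a splicing factor, and the study used its mutants as a fly model of retinitis pigmentosa 11, an inherited degeneration of the retina. Each library was made from 50 pooled heads of flies aged 2 days and raised at 25 °C. The series covers both sexes, and the labels give neither the sex ratio of a library nor whether the mutants also carry a white allele. Values were FPKM, fragments scaled to the length of the gene and the size of the library, so that levels can be compared between genes per length.

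Flies store energy as triacylglycerol in lipid droplets of the fat body, an organ that combines roles of the vertebrate liver and adipose tissue and that also lies inside the head capsule. Enzymes such as the diacylglycerol acyltransferase Midway (mdy) make the triacylglycerol, perilipins (Lsd-1 and Lsd-2) coat the droplets, and lipases such as Brummer (bmm) release the fatty acids again. Lipids travel between organs in the haemolymph on lipophorin, a lipoprotein particle whose scaffold is made from the apolpp protein. The Mtp protein loads lipid onto apolipoproteins inside the cell, and the lipid transfer particle built on Apoltp moves lipids onto circulating lipophorin.

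The neuronal genes elav and nSyb were present in every library, at 7.35 to 9.86 and 86.9 to 129 FPKM. Both mark neurons in general, so they are no specific check of the label of head tissue. Column totals lay between 348791 and 402452 FPKM. Exact read depths per library are not known, so counting errors were not computed. Prp31 itself lay between 13.5 and 14.2 FPKM in mutant heads and between 13.8 and 14.05 FPKM in control heads, and since the change that P18 makes in the transcript is not given in the labels, this level is no check of them. Control replicate 3 stood apart from control replicates 1 and 2: across the tested genes, which are no independent replicates, its log2 values had a Pearson correlation of 0.980 and 0.978 with theirs, while the other 2 had one of 0.996. With the mutant libraries its correlation was lower, at 0.971 to 0.974, and the mutants had 0.987 to 0.992 among themselves. The values of control replicate 3 are therefore given apart. The fold change of each of the 8 genes is given with and without it, and for other named genes the value without it is given where the call then differs. The labels do not call the replicates separate cultures, so p-values cover the spread among these libraries, which may be technical.

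None of the 8 genes passed the test between mutant and control heads when all 6 libraries were used. Without control replicate 3, apolpp, Mtp and Lsd-1 were called as higher in mutant heads, and the other 5 did not pass. That library was set apart for its values in these same data. Leaving it out narrowed the spread among the controls for apolpp, Mtp and Lsd-1, so p-values without it hold only given that choice. With all libraries 0 of 8 were called (limma, threshold of 0.05 after Benjamini-Hochberg adjustment over 8465 genes), beside 11.3% of all tested genes. Of the 8, 1, Lip4, had an unadjusted p under 0.05 (limma). By p it ranked 1402 among the 8465, so an unadjusted p under 0.05 was common in the whole table. Without control replicate 3 the count of called genes was 3 of 8, all higher, beside 26.2% of all tested genes called in either direction and 9.90% called as higher. All 8 had a mean above the filter of 1 FPKM, so none was left untested. The median log2 fold change, taken as mutant minus control on the log2(FPKM + 1) scale, was 0.07 over the 8 genes and -0.066 over all tested genes. Fewer cells of a type and less RNA per cell cannot be told apart in RNA from whole heads.

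**Figure D1:**
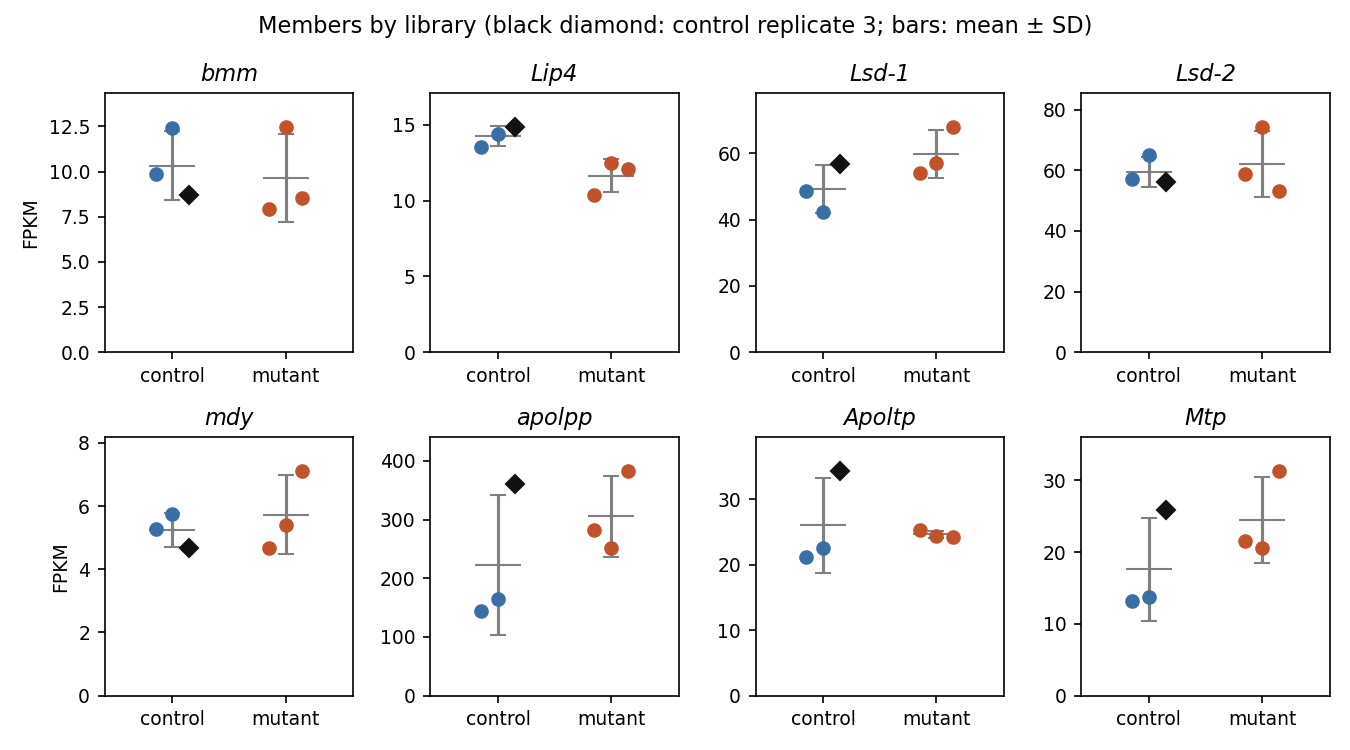
FPKM of each of the 8 genes (vertical axes, starting at 0) in the 3 control and 3 mutant libraries (points), with the mean and SD of each group as bars and control replicate 3 as a black diamond. Only for Lip4 do the groups not overlap; for apolpp, Mtp and Apoltp the black diamond lies far above the other 2 controls.

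The lipase genes had lower means in mutant heads, and neither passed the test. Lip4 encodes a lipase of the acid lipase family and has been described as a target of the transcription factor FOXO in flies; on the build BDGP6 it lies on 2L (10527572 to 10531778, plus strand). Its mutant libraries held 10.4, 12.5 and 12.1 FPKM, against 13.5, 14.4 and 14.8 FPKM in control heads. Every mutant library lay below every control library, and the highest value was that of control replicate 3. Of the 8 genes, 1 thus had groups that did not overlap, with the mutants below, and 0 had the mutants above. Over all tested genes 31.2% did not overlap, 21.8% with the mutants below and 9.46% with the mutants above. On the log2 scale the difference was -0.27 (SE 0.09), with a 95% interval from -0.48 to -0.07 (limma, unadjusted p = 0.0147, adjusted p = 0.0890). Without control replicate 3 it was -0.25 (limma adjusted p = 0.1005), so its size did not rest on that library. It was smaller, at -0.20, without mutant replicate 1 (limma adjusted p = 0.161) and with median-ratio scaling (0.239), and larger, at -0.32, without mutant replicate 2 (0.118).

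Brummer, the fly counterpart of adipose triglyceride lipase, acts at the droplet surface. Its gene bmm had 7.92, 12.5 and 8.56 FPKM in mutant and 9.88, 12.4 and 8.71 FPKM in control heads. The groups overlapped over nearly their whole range, and replicate 2 was the highest library of both. Its log2 fold change was -0.10 with a 95% interval from -0.52 to 0.31 (limma adjusted p = 0.745), and -0.21 without control replicate 3 (limma adjusted p = 0.443). Its sign was not stable, since it became positive, at up to 0.027, without mutant replicate 1 or control replicate 2. The gene lies on the minus strand of 3L, from 14776496 to 14786412, 0.373 Mb from Prp31, so a linked difference between the strains cannot be told apart from the mutation for this gene. Lsd-1 lies on 3R, the other arm of that chromosome. Differences between the strains elsewhere in the genome cannot be told apart from the mutation either, for any of the genes.

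The 2 perilipin genes stood at like levels, and neither passed the test with all libraries. Lsd-1 encodes the perilipin that in flies controls the access of lipases to the droplet when fat is mobilised. It had 54.1, 57.1 and 67.9 FPKM in mutant and 48.5, 42.3 and 56.8 FPKM in control heads. The highest control was replicate 3, which lay between mutant replicates 1 and 2, and the other 2 controls lay below all mutants. This gave a log2 fold change of 0.28, with a 95% interval from -0.03 to 0.59 (limma adjusted p = 0.225), and 0.38 without control replicate 3, with an interval from 0.11 to 0.65 (limma adjusted p = 0.0463). Lsd-1 lies on 3R (23763857 to 23766662, plus strand) and shares 144 bases with CG10214 on the opposite strand.

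Lsd-2 encodes the perilipin that protects stored fat from breakdown, and lies on X (15069127 to 15076220, minus strand). It had 58.7, 74.2 and 53.2 FPKM in mutant and 57.0, 65.1 and 56.1 FPKM in control heads, and all 3 controls lay inside the mutant range. A log2 fold change of 0.05 was found, with a 95% interval from -0.26 to 0.36 (limma adjusted p = 0.836), and 0.01 without control replicate 3. The level of Lsd-1 relative to Lsd-2 was 0.922, 0.770 and 1.28 in mutant and 0.851, 0.650 and 1.01 in control libraries, again overlapping (exact permutation test, two-sided, p = 0.5, where 3 against 3 libraries cannot go below 0.1).

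For mdy, whose enzyme carries out the last step of triacylglycerol synthesis, values were low, at 4.67, 5.404 and 7.12 FPKM in mutant and 5.28, 5.75 and 4.67 FPKM in control heads. Mutant replicate 3 was the highest library, and mutant replicate 1 and control replicate 3 were equally the lowest. Its log2 fold change was 0.10 with a 95% interval from -0.22 to 0.42 (limma adjusted p = 0.676). It was 0.03 without control replicate 3 (limma adjusted p = 0.891) and -0.045 without mutant replicate 3. The gene spans 10305 bases of 2L (16816660 to 16826964, plus strand), of which 4052 lie within the span of Cse1 and 4434 within that of CG13280, both on the opposite strand. Cse1, listed as Cas, had 6.71, 6.24 and 6.81 FPKM in mutant and 5.03, 4.38 and 6.15 FPKM in control heads, levels like those of mdy. CG13280 had at most 0.336 FPKM. Counting by strand is not mentioned in the labels, and any share of their reads in the values of mdy was not tested.

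Among the 8 genes, apolpp and Mtp had the largest log2 differences, both between the group means and between control replicate 3 and the other controls. The most abundant of the 8, apolpp, had 282, 252 and 383 FPKM in mutant heads and 143, 165 and 359.9 FPKM in control heads. Control replicates 1 and 2 lay below every mutant library, and control replicate 3 lay above mutant replicates 1 and 2. The group means were 306 ± 68.8 and 223 ± 119 FPKM (mean ± SD, n = 3 each), a ratio of 1.37. On the log2 scale the difference was 0.56 with a standard error of 0.34 and a 95% interval from -0.24 to 1.35 (limma adjusted p = 0.326). With that library left out it was 0.96 with a standard error of 0.17 and an interval from 0.56 to 1.37 (limma adjusted p = 0.00713), a ratio of 1.98 to the mean of 154 FPKM of the other 2 controls. apolpp lies on chromosome 4 (1060969 to 1077273, plus strand) and shares 4033 bases with Zyx on the opposite strand, whose 10.8 to 13.5 FPKM over the 6 libraries were far below those of apolpp.

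Mtp encodes the microsomal triacylglycerol transfer protein, which loads lipid onto apolipoproteins. It had 21.5, 20.5 and 31.4 FPKM in mutant and 13.2, 13.8 and 25.9 FPKM in control heads, an arrangement like that of apolpp, with control replicate 3 above mutant replicates 1 and 2. Its log2 fold change was 0.49 with a 95% interval from -0.12 to 1.11 (limma adjusted p = 0.272). It became 0.79 without control replicate 3, with an interval from 0.39 to 1.19 (limma adjusted p = 0.0144). The gene lies on 2L (20919094 to 20922876, minus strand), and no other annotated gene overlaps it.

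Apoltp, on 2L (9634179 to 9656026, plus strand), encodes the apolipoprotein of the lipid transfer particle. It had 25.3, 24.4 and 24.2 FPKM in mutant and 21.2, 22.5 and 34.4 FPKM in control heads. Here the mutant libraries were close together, above control replicates 1 and 2 and below control replicate 3. Its log2 fold change was -0.04 with a 95% interval from -0.43 to 0.35 (limma adjusted p = 0.887), and 0.17 without control replicate 3 (limma adjusted p = 0.131). Its sign also turned with other scalings, to 0.029 with median-ratio scaling and 0.020 with quantile normalization.

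**Figure D2:**
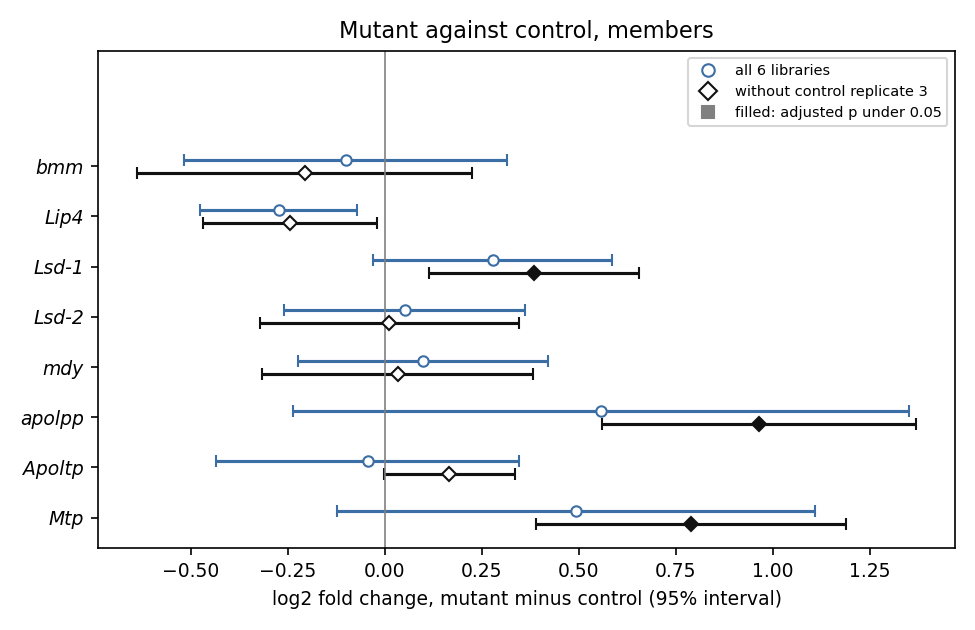
Log2 fold change of each gene, mutant minus control (horizontal axis), with its 95% interval from limma, for all 6 libraries (circles) and without control replicate 3 (diamonds), filled where the adjusted p is under 0.05. No circle is filled, and the filled diamonds are those of Lsd-1 at 0.38, apolpp at 0.96 and Mtp at 0.79.

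Among the 8 genes, control replicate 3 differed most from the other controls in the 3 lipoprotein genes. Relative to the mean of control replicates 1 and 2, its log2 level was 1.22 higher for apolpp, 0.89 higher for Mtp and 0.63 higher for Apoltp. A difference of at least 0.5 in that direction was thus seen in 3 of 8 genes, beside 5.53% of all tested genes, and was not tested, since it rests on 1 library. Lsd-1 was 0.32 and Lip4 0.08 higher in control replicate 3, while bmm was 0.32, mdy 0.20 and Lsd-2 0.12 lower on the same scale. It lay above both other controls in 5 of 8 genes and below both in 3, where these shares were 39.7% and 43.8% over all tested genes. Control replicate 3 lay within or above the range of the mutant libraries in 8 of 8 genes, as it did in 82.3% of all tested genes, so that this was common in the whole table. The mean of the mutant libraries differed from control replicate 3 by -0.26 for apolpp, -0.10 for Mtp, 0.06 for Lsd-1, -0.46 for Apoltp and -0.33 for Lip4 in log2.

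**Figure D3:**
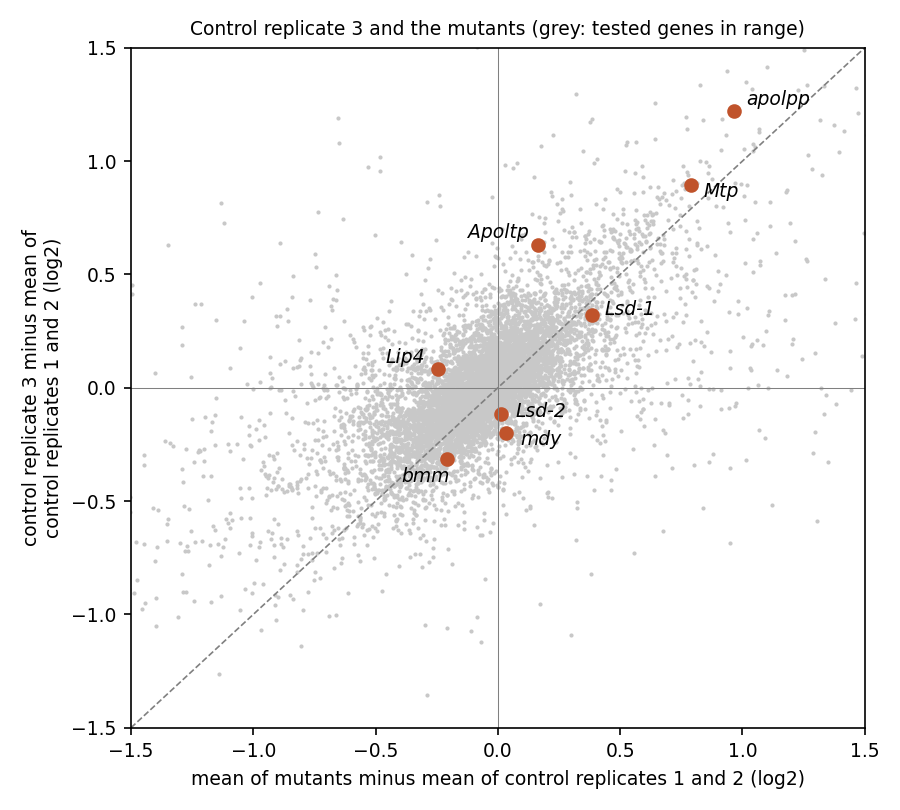
For each tested gene, the log2 difference of control replicate 3 from the mean of control replicates 1 and 2 (vertical axis) against that of the mean of the 3 mutants from the same 2 controls (horizontal axis), shown between -1.5 and 1.5. Both axes share those 2 controls, so the grey cloud slopes by construction; apolpp lies at 0.96 and 1.22 and Mtp at 0.79 and 0.89, near the dashed line of equal differences, and Apoltp at 0.17 and 0.63 lies above it.

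Per length, the 8 genes had the same order in the mean of the mutant and of the control libraries. apolpp stood first, from 143 to 383 FPKM over the 6 libraries, and did not overlap with any other of the 8. Lsd-2 (53.2 to 74.2 FPKM) and Lsd-1 (42.3 to 67.9 FPKM) followed and overlapped with each other. Apoltp (21.2 to 34.4 FPKM) and Mtp (13.2 to 31.4 FPKM) overlapped as well, and Mtp also overlapped with Lip4. Lip4 (10.4 to 14.8 FPKM) overlapped with bmm (7.92 to 12.5 FPKM), and mdy (4.67 to 7.12 FPKM) lay below both.

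The levels of apolpp and Mtp kept a nearly fixed proportion. Their ratio was 13.1, 12.3 and 12.2 in mutant and 10.9, 11.96 and 13.9 in control libraries, a range of 1.28-fold, a smaller range than that of either level. Of the 6 ratios computed, that of Lsd-2 to bmm came next, with a range of 1.41-fold, so a steady ratio was not particular to lipoprotein genes. The ratio of apolpp to Apoltp was less steady, at 11.2, 10.3 and 15.8 in mutant and 6.77, 7.31 and 10.5 in control libraries. Only control replicate 3 of the controls reached the mutant range there (exact permutation test, two-sided, p = 0.2). The ratio of Mtp to Apoltp was 0.851, 0.841 and 1.29 in mutant and 0.622, 0.611 and 0.754 in control libraries. These groups did not overlap, with control replicate 3 included, and the exact permutation p of 0.1 was the smallest that 3 against 3 libraries can give. These 3 ratios of lipoprotein genes are among 6 computed, so none would pass an adjustment.

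Summed fat body markers, like apolpp and Mtp, were higher in control replicate 3 and in the mutants than in control replicates 1 and 2, though not every marker was. The summed level of 4 transcripts of the female fat body, the yolk protein genes Yp1, Yp2 and Yp3 and the gene fit, was 20528, 17518 and 46812 FPKM in mutant and 3604, 3995 and 20099.9 FPKM in control heads. Control replicate 3 thus lay between mutant replicates 1 and 2, and mutant replicate 3 was highest, as it was for apolpp, Mtp, Lsd-1 and mdy. None of the 4 passed the test (limma, 0 of 4, and 4 higher at an unadjusted p under 0.05), with log2 fold changes of 1.83 for Yp1 and 2.66 for Yp3 (limma adjusted p = 0.132 and 0.103). All 4 were called as higher without control replicate 3, Yp1 at 2.57 and Yp3 at 3.76 (limma adjusted p = 0.00232 and 0.000588). The 8 fat body markers not chosen for a sex, and not checked for sex bias, summed to 208, 219.5 and 622 FPKM in mutant and 62.3, 63.3 and 218 FPKM in control heads, with 3 of them under the filter. In mutant replicate 3 most of that sum was Lsp2, a larval serum protein gene. It had 72.7, 61.3 and 450.7 FPKM in mutant and 3.27, 1.92 and 60.8 FPKM in control heads. In control replicate 3, Lsp1beta and Obp99b stood near it, at 53.5 and 52.4 FPKM. The gene to, the largest part in replicates 1 and 2 of both groups, had 88.3, 95.5 and 64.1 FPKM in mutant and 44.9, 49.5 and 43.5 FPKM in control heads. Both to and Lsp1gamma were lower in control replicate 3 than in the other 2 controls. Of the 5 tested, to rose (0.81, limma adjusted p = 0.0149), Lsp1gamma fell (-1.02, limma adjusted p = 0.0254), and Lsp2, the most abundant with to, had 3.80 (limma adjusted p = 0.0905). With control replicate 3 left out the list held 4 higher and 1 lower, with Lsp2 at 5.17 (limma adjusted p = 0.00351). Dropping mutant replicate 1 (limma adjusted p = 0.0615) or control replicate 1 (0.0563) ended the call of to, and dropping mutant replicate 1 or 2, or control replicate 2, that of Lsp1gamma (0.0555 to 0.0857), which quantile normalization (0.0530) and the yolk protein covariate (0.211) ended too.

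Summed muscle and glial markers were lower in control replicate 3 and in the mutants than in control replicates 1 and 2. The 5 muscle genes summed to 749, 999.96 and 738 FPKM in mutant and 2155, 2018 and 1149.9 FPKM in control heads, with control replicate 3 nearest the mutants. Of these genes 3 fell, among them the actin gene Act57B (-1.19, limma adjusted p = 0.0317), and the myosin gene Mhc had -0.61 (0.178). Leaving out any 1 library other than control replicate 3, or using either other scaling, left 1 call. All 5 were called as lower without control replicate 3, with Mhc at -0.91 (limma adjusted p = 0.00269). The 5 glial genes summed to 469, 504 and 437 FPKM in mutant and 661, 641 and 499 FPKM in control heads. Of these 1 fell, alrm (-0.69, limma adjusted p = 0.0179), a call that ended when any 1 library but control replicate 3 was dropped (0.0530 to 0.0712) and with the yolk protein covariate (0.0892), and Gs2 had -0.20 (0.400). When control replicate 3 was dropped, 4 of the 5 were called as lower, alrm at -0.84 (limma adjusted p = 0.000330) and Gs2 at -0.31 (0.0456). The exception was repo, a glial transcription factor gene, with 18.5, 21.5 and 17.2 FPKM in mutant and 20.2, 17.6 and 17.7 FPKM in control heads, a log2 difference of 0.04 (limma adjusted p = 0.839) and of 0.0093 without control replicate 3. No marker found in the table was at 0 in all 6 libraries, and the part of fat body, muscle or glial content in the values of the 8 genes was not tested.

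**Figure D4:**
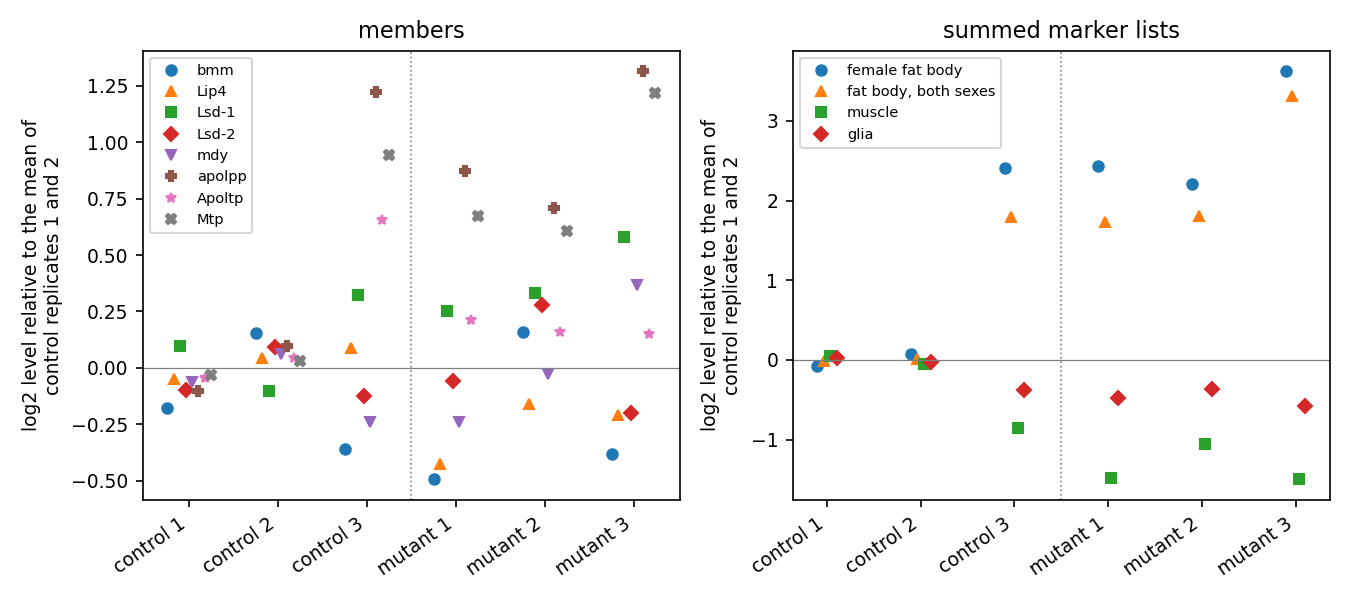
Log2 level of each of the 8 genes (left) and of the summed FPKM of 4 marker lists (right) in each library, relative to the mean of control replicates 1 and 2. In control replicate 3 and in the mutants, apolpp and Mtp and both fat body sums lie above 0, and the muscle and glial sums lie below 0.

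When the average log2 level of the yolk protein genes entered the fit as a covariate, the log2 difference of apolpp became -0.39 (limma adjusted p = 0.118), that of Mtp -0.26 (0.146) and that of Lsd-1 -0.0093 (0.980). That fit turned the sign of all 3, and none of the 8 genes passed in it. Lip4, at -0.34 (limma adjusted p = 0.174), and Apoltp, at -0.43 (0.174), kept their sign. Since control replicate 3 was the only control with yolk protein levels in the range of the mutants, genotype and covariate are only partly separable with 6 libraries.

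Of the other markers, 1 of 6 haemocyte genes fell, Hml (-0.42, limma adjusted p = 0.0227), a call that ended when mutant replicate 2 or 3, or control replicate 1, was dropped (0.0736 to 0.0840), while crq, the most abundant, had -0.14. None of 5 neuronal genes passed limma, with -0.32 for nSyb and -0.17 for Syt1, nor did any of 3 tested oenocyte genes, with 0.14 for FarO and 0.61 for Cyp4g1, or 2 digestive tract genes, with 0.03 for Mal-A1 and 0.84 for Amy-p. At an unadjusted p under 0.05, 1 neuronal gene was lower, 0 oenocyte genes differed and 1 digestive tract gene was higher. Without control replicate 3, nSyb was called as lower (-0.38, limma adjusted p = 0.0390), and Cyp4g1 (1.17, 0.00764) and Amy-p (1.11, 0.00554) as higher. Of 2 male-biased genes tested, sxe2 rose (0.39, limma adjusted p = 0.0301), a call that ended when any 1 library but control replicate 3 was dropped (0.0602 to 0.128) and with the yolk protein covariate (0.190), and Cyp4d21 had -0.50 (0.460).

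The wider pathway was described by 6 lists of other lipid genes, 97 symbols of which 89 were in the table and 73 were tested. Of these 73, 2 rose and 3 fell, or 2.74% and 4.11%, beside 3.53% and 7.81% of all tested genes. When control replicate 3 was left out, 15 were higher and 7 lower, or 20.5% and 9.59%, beside 9.90% and 16.3% of all tested genes. Leaving out any 1 other library gave 3 to 6 calls in place of 5.

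Triacylglycerol synthesis held 3 of the 5 calls, 1 higher and 2 lower among 9 tested genes, beside 3.53% and 7.81% of all tested genes. No set test was run on this short list, whose median log2 fold change was 0.15. CG1942, a gene of the diacylglycerol acyltransferase 2 family, had 1.75, 1.495 and 1.81 FPKM in mutant and 7.63, 7.12 and 4.60 FPKM in control heads. It fell by 1.45 on the log2 scale (limma adjusted p = 0.00195), and control replicate 3 was the control nearest the mutants. Its relative CG1941 had 4.28, 4.17 and 5.11 FPKM in mutant and 2.17, 2.33 and 1.97 FPKM in control heads and rose by 0.80 (limma adjusted p = 0.00231), with control replicate 3 the lowest library. Related genes can share reads, and any division of reads between CG1942 and CG1941 was not tested. Both calls held without any 1 library. CG4729, an acyltransferase gene of the phosphatidic acid step, fell by 0.43 (limma adjusted p = 0.0183). The call ended when mutant replicate 1 or 3, or control replicate 1, was dropped (0.0565 to 0.0766), with median-ratio scaling (0.0561) and with the yolk protein covariate (0.0541).

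Among regulators of lipid storage, 1 of 16 tested genes rose and 0 fell. It was the gene of the SREBP cleavage activating protein, an escort of a transcription factor that controls lipid synthesis. Listed as SCAP, it had 11.96, 11.9 and 11.0 FPKM in mutant and 5.57, 5.50 and 6.30 FPKM in control heads. The groups were far apart and control replicate 3 lay with the other controls. Its log2 difference was 0.90 (limma adjusted p = 0.000521), and the call held without any 1 library. The gene of the transcription factor itself, SREBP, listed as HLH106 and named after its values were seen, had 0.26 (limma adjusted p = 0.0905).

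The receptors, carriers and assembly partners of lipoproteins had 0 higher and 1 lower among 14 tested genes. LpR2 encodes a lipophorin receptor, and it had 4.12, 3.97 and 3.48 FPKM in mutant and 5.74, 5.54 and 4.98 FPKM in control heads. It fell by 0.40 (limma adjusted p = 0.0262), a call that ended when any 1 library but control replicate 3 was dropped (0.0505 to 0.121) and with the yolk protein covariate (0.242). The other lipophorin receptor gene, LpR1, was named after its values were seen. It had 6.24, 5.18 and 4.97 FPKM in mutant and 10.5, 10.2 and 6.32 FPKM in control heads, with control replicate 3 next to the mutants (log2 fold change -0.61, limma adjusted p = 0.0703, and -0.82 with 0.00174 without control replicate 3). Pdi, whose vertebrate counterpart is the partner subunit of the Mtp protein, also followed after its values were seen. It had 91.7, 96.2 and 117 FPKM in mutant and 75.4, 79.8 and 111 FPKM in control heads, and mutant replicate 3 and control replicate 3 were again the highest of their groups (0.21, limma adjusted p = 0.445). With control replicate 3 set aside, Pdi was called as higher (0.38, limma adjusted p = 0.0459).

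No gene passed among 5 other lipases, 8 other droplet proteins and 21 genes of fatty acid activation and beta-oxidation (limma, 0 in each). At an unadjusted p under 0.05 limma gave 1 higher and 1 lower, 1 higher and 0 lower, and 2 higher and 3 lower in these lists. The most abundant of the lipases were CG18302, described as a lipase (-0.29, limma adjusted p = 0.135), and Hsl, the hormone-sensitive lipase gene (-0.12, 0.386). The lipase list had 12 further genes under the filter. dob, a relative of bmm that was named after its values were seen, had 14.2, 15.5 and 18.6 FPKM in mutant and 2.92, 5.19 and 11.0 FPKM in control heads. The groups did not overlap, control replicate 3 was nearest to the mutants, and the log2 fold change of 1.36 had an adjusted p of 0.0509 (limma), and 1.79 and 0.00100 without control replicate 3. Of the droplet list, CdsA, a gene of phospholipid synthesis, had -0.12 (limma adjusted p = 0.600) and CG2254, a dehydrogenase found on droplets, 0.27 (0.0710). For beta-oxidation the most abundant genes were CG12262, of a medium-chain acyl-CoA dehydrogenase (-0.45, limma adjusted p = 0.0950), and CG7834, of an electron transfer flavoprotein subunit (0.40, 0.0675). When control replicate 3 was left out, 4 genes of that list were higher and 0 lower, with CG7834 at 0.48 (limma adjusted p = 0.00715). In the droplet list CG2254 was then higher (0.29, limma adjusted p = 0.0254) and CdsA lower (-0.26, 0.0450).

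**Figure D5:**
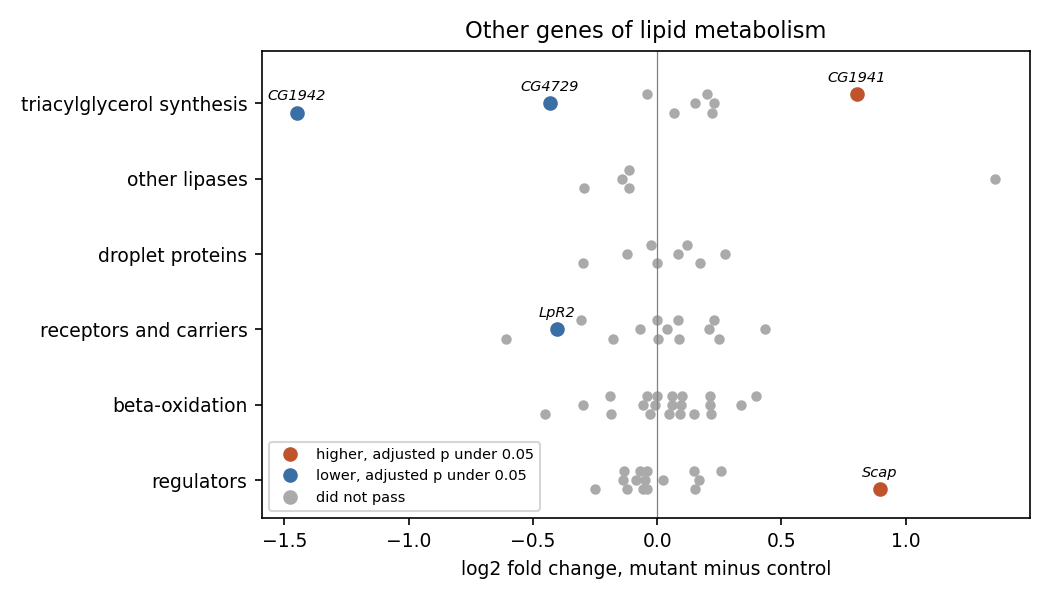
Log2 fold change, mutant minus control (horizontal axis), of the tested genes of 6 lists of lipid genes, 1 point a gene, coloured where the adjusted p is under 0.05. The 5 coloured points are CG1941 and the SREBP cleavage activating protein gene (Scap) on the right and CG1942, CG4729 and LpR2 on the left.

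The genes whose pattern over the 6 libraries was most like that of apolpp were CG3246, Ance-4 and CG10688. Their log2 values had a Pearson r of 0.997, 0.996 and 0.995 with apolpp over 6 libraries, as a description only, and 164 tested genes had an r over 0.95. CG3246 had 92.4, 88.2 and 116 FPKM in mutant and 53.4, 61.9 and 109 FPKM in control heads, and Ance-4, of the angiotensin-converting enzyme family, had 41.4, 39.6 and 51.9 and 25.8, 27.7 and 47.5 FPKM. CG10688 is described as a probable phosphomannomutase gene. Each was high in control replicate 3, and none of the 3 passed the test (limma adjusted p between 0.262 and 0.296). All 3 were called as higher without control replicate 3 (log2 fold changes of 0.76, 0.70 and 0.52, limma adjusted p = 0.00625, 0.00634 and 0.00820). No gene of the 8 passed with all libraries, so no second pattern was searched.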

How the data were processed

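The labels' protocols describe poly(A) selection, a strand-specific kit, 15 PCR cycles and single reads of 75 bases. Expression was deposited by the authors as FPKM, 1 value for each gene and library. Per the submitters' processing notes, CASAVA 1.8, STAR 2.5.2b and the build BDGP6 were used; how FPKM were computed, from which annotation and with what use of strand is not stated. Groups came from the sample titles. A gene was tested if its mean over the libraries reached 1 FPKM, which kept 8465 of 11836. The test was limma 3.58.1 (R 4.3.3) on log2(FPKM + 1), using a variance trend and Benjamini-Hochberg adjusted p-values across all tested genes, at a threshold of 0.05. It was also run on simulated data with independent noise for each gene and library. Such data hold no library that deviates as a whole, as control replicate 3 did, so that run does not cover this case. Fold changes on this scale understate changes of low genes. Positions are those of an annotation of the same assembly, in which 11630 of the identifiers were found. The 8 genes, the lists and the rule for named genes were chosen with earlier results of these data known. That rule took up to 4 called genes of each pathway list, or its 2 most abundant where none was called, the 2 most abundant markers of each tissue or sex, and the 3 genes most like apolpp; genes outside it are marked as named after their values were seen, or complete a count. Each result was also computed with 2 other pseudocounts (0.1 and 0.5), without the filter and with one at 5 FPKM, after median-ratio or quantile scaling, without the variance trend, with robust variance estimates, with weights per library, with replicate numbers as a block, with yolk protein transcripts as a covariate, and after dropping each library.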

Additional observations from a re-analysis of the deposited data

How the results depend on the processing

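With pseudocounts of 0.1 and 0.5, no filter, no variance trend or a robust prior, every one of the 8 genes kept its direction and none passed the test. A filter of 5 FPKM left the 8 genes as they were and, with fewer genes tested, lowered the genes called as lower from 661 to 417. Apoltp turned to 0.029 with median-ratio scaling and 0.020 with quantile normalization, as a log2 fold change. Library weights, lowest for control replicate 3 at 0.255, called 1128 genes as higher and 2170 as lower, and 3 of the 8: Lsd-1 (0.30, limma adjusted p = 0.0321), apolpp (0.84, 0.0132) and Mtp (0.67, 0.0124), while bmm turned to 0.046 and Apoltp to 0.15. With the yolk protein covariate 181 genes were higher and 310 lower, and bmm turned to 0.18, Lsd-1 to -0.0093, apolpp to -0.39 and Mtp to -0.26. The replicate number as a block called 406 genes as higher and 736 as lower, and 1 of the 8, Mtp (0.49, limma adjusted p = 0.0270). Deviations of same-numbered libraries correlated at -0.01, 0.21 and 0.32, and not every library correlated best with its own number, so the numbers were not taken as pairs. Of the 73 genes of the 6 pathway lists, 5 were called with none of these changes, 2 with the filter of 5 FPKM, 9 with quantile normalization, 10 with the block and 30 with library weights. With the filter of 5 FPKM, CG1942, CG1941 and LpR2 were no longer tested, since their means lay under it. The cause of the other changes was not tested.

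Leaving out 1 library gave 144 to 838 genes called as higher and 268 to 1383 as lower, in both cases fewest without control replicate 1 and most without control replicate 3, and 0 to 3 of the 8 as higher. Log2 fold changes then ranged from -0.28 to 0.027 for bmm, from -0.32 to -0.20 for Lip4, from 0.18 to 0.38 for Lsd-1, from -0.083 to 0.15 for Lsd-2, from -0.045 to 0.21 for mdy, from 0.30 to 0.96 for apolpp, from -0.17 to 0.17 for Apoltp and from 0.31 to 0.79 for Mtp. Lip4 kept its direction in all alternatives, and none of the 8 was called as lower in any of them. Control replicate 3 minus control replicates 1 and 2 kept its sign under both pseudocounts and both scalings for all 8 genes. With the main setting included, this log2 difference lay from 1.22 to 1.23 for apolpp, from 0.89 to 0.94 for Mtp and from 0.63 to 0.65 for Apoltp. Without read counts per library, what depth limits cannot be given.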
